A study of Mus musculus with 22 samples.

Results

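The 5 genes described here lie where the transgenes of the rTg4510 tau mouse entered the genome. Wdr60, Esyt2, Ncapg2 and Ptprn2 are neighbours on chromosome 12, at the insertion of the tetracycline transactivator (tTA). Fgf14 is on chromosome 14, at the insertion of the tau responder. They were chosen by name, for their position, with earlier results of these data known. They are 5 of the 13685 genes of a Drop-seq count table from mouse hippocampus. Drop-seq catches single cells in droplets with barcoded beads and reads the 3' ends of their transcripts. The 22 mice formed 6 groups: 5 old WT animals (32 to 40 weeks of age), 4 old rTg4510 (32 to 38), 3 old P301L (41 to 48), 3 old rTta (33), 4 young WT and 3 young rTg4510 (4 to 6 weeks in the sample labels, lower in the series description). The rTg4510 animals carry both transgenes: tTA under the Camk2a promoter, active mainly in excitatory neurons of the forebrain, and a cDNA of human P301L mutant tau, which tTA switches on. The names P301L and rTta stand for the tau responder alone and tTA alone; the labels give only the names. WT animals were littermates without either transgene, and all 22 animals share the strain label Fvb/B6.

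A transgene that integrates at random can disrupt or delete the genes it lands in, and every cell of the animal then carries that change on 1 chromosome copy, whether or not the transgene is switched on. Both insertions of this line are known to have removed genomic sequence at these genes. Wdr60 encodes an intermediate chain of dynein-2, the motor that returns cargo from the tip of the cilium. Esyt2, extended synaptotagmin 2, tethers the endoplasmic reticulum to the plasma membrane. Ncapg2 is a subunit of condensin II, which compacts chromosomes. Ptprn2 (phogrin) is a phosphatase-like protein in the membrane of dense-core vesicles of neurons and endocrine cells. Fgf14 is an intracellular fibroblast growth factor homologue that binds voltage-gated sodium channels at the axon initial segment.

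On GRCm38.p6 (mm10), the RefSeq annotation places Wdr60 at chr12:116206261-116263046 on the minus strand. Esyt2 follows at chr12:116279283-116390935, Ncapg2 at chr12:116405351-116463532 and Ptprn2 at chr12:116485695-117278167, all on the plus strand. Fgf14 spans chr14:123974441-124677686 on the minus strand. All 5 are protein-coding, and each had a promoter in the RefSeq table. Wdr60 and Esyt2, which fell together in the comparisons, are transcribed away from each other from starts 18197 bases apart. Their promoters and that of Fgf14 are shown as the 250 bases before the listed start, 5′ to 3′ on the gene's strand, with each CG dinucleotide in capitals.
Wdr60 promoter, chr12:116263026-116263275, minus strand: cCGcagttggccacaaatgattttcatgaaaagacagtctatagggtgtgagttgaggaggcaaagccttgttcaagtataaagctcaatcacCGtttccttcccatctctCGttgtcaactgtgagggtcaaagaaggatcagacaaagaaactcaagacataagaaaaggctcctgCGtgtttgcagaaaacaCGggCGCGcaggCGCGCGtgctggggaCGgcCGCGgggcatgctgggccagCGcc
Esyt2 promoter, chr12:116280972-116281221, plus strand: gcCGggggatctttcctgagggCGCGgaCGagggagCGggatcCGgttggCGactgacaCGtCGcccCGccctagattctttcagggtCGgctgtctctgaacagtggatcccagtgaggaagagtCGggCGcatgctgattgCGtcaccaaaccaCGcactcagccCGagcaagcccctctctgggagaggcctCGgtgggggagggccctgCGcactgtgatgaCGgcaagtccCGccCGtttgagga
Fgf14 promoter, chr14:124192547-124192796, minus strand: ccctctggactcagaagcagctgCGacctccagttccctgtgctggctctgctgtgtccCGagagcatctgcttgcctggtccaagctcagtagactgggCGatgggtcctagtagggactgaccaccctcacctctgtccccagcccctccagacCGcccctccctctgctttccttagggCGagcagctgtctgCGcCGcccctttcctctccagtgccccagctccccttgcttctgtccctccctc
The starts listed for Wdr60, Esyt2 and Fgf14 lie inside their annotated spans, so other transcripts of each begin elsewhere. The windows hold 14 CG dinucleotides for Wdr60, 21 for Esyt2 and 7 for Fgf14, against a median of 6 over 32851 mouse promoters of the same length. The letters TATAAA, searched on both strands, occur once in the Wdr60 window and in neither of the others, and 12.4% of all promoters hold them. CCAAT, likewise searched on both strands, is in none of the 3 windows and in 33.8% of all promoters.

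Between 499 and 1599 cells per animal passed a minimum of 300 counts, 27198 in all, and gave 731373 to 6039653 counts per animal. The table appears to join 2 parts, 1 of P301L and rTta animals and 1 of WT and rTg4510 animals, which the labels do not state. The parts are read from the genes at 0: 12614 genes were counted in both parts, 270 were at 0 throughout the first and 801 throughout the second. Levels are given as CPM, a gene's counts scaled to the same total in every animal, over the 12614 shared genes. Of 26998 kept barcode sequences, 197 occurred in more than 1 animal. As a check of the labels, Mapt, the tau gene, stood between 1412 and 2176 CPM in excitatory neurons of the 7 rTg4510 animals and between 417.6 and 629.7 CPM in the other 15. Interneurons also had more Mapt, with means of 1570 CPM in old rTg4510 against 664.7 in old WT and 1720 in young rTg4510 against 637.0 in young WT. Nothing in the labels ties animals of different groups together, and p values measure the spread between animals.

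Because the parts differ, the old groups were combined so that the part cancels. The transactivator contrast is the mean of 2 log2 differences, old rTg4510 minus old WT and old rTta minus old P301L. The tau responder contrast is the mean of old rTg4510 minus old WT and old P301L minus old rTta. The 2 contrasts share all 15 old animals, and in the second part P301L animals were older than rTta animals. In young animals only rTg4510 and WT were available, so the transgenes cannot be told apart there. All 5 genes passed the filter on low counts over all cells, where 12414 genes were tested with edgeR.

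Wdr60 was lower wherever tTA was carried. Over all cells the 5 old WT animals stood at 132, 146, 89.9, 85.0 and 182.5 CPM, and the 4 old rTg4510 animals at 55.8, 69.8, 53.5 and 68.7 CPM. In P301L the values were 148.6, 87.7 and 59.0 CPM, and in rTta 47.0, 47.2 and 31.7 CPM. Neither pair of groups overlapped, but the lowest P301L animal, replicate 3, lay within the old rTg4510 animals. Young WT animals stood at 196.8, 184.2, 104.9 and 126.1 CPM and young rTg4510 animals at 61.7, 42.5 and 46.5 CPM, again without overlap. The mean of old rTg4510 was 48.7% of old WT, that of rTta 42.6% of P301L and that of young rTg4510 32.8% of young WT. The transactivator contrast of Wdr60 was -1.11 ± 0.20 on the log2 scale (SE, edgeR adjusted p = 0.022). Without P301L replicate 3 it was -1.22 (adjusted p = 0.013), whereas leaving out P301L replicate 1 gave -0.93 (adjusted p = 0.082) and leaving out any 1 of the 3 rTta animals gave adjusted p between 0.052 and 0.064. The tau responder contrast of Wdr60 was 0.13 ± 0.20 (adjusted p = 0.86).

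Over all cells, Esyt2 separated the animals completely by transgene. All 10 carriers of tTA, at 20.5 to 33.8 CPM, lay below all 12 animals without it, at 36.9 to 68.6 CPM. Old WT animals stood at 41.5, 59.0, 49.8, 36.9 and 64.3 CPM and old rTg4510 animals at 26.1, 32.8, 20.5 and 29.5 CPM. In P301L they were 56.3, 59.1 and 68.6 CPM, and in rTta 23.5, 33.8 and 30.3 CPM. In young animals the values were 51.5, 62.3, 45.0 and 66.8 CPM in WT and 27.1, 24.3 and 20.7 CPM in rTg4510. Old rTg4510 stood at 54.1% of old WT, rTta at 47.6% of P301L and young rTg4510 at 42.7% of young WT. The transactivator contrast was -0.96 ± 0.15 (edgeR adjusted p = 0.0089), and -0.89 (adjusted p = 0.054) without rTta replicate 1. The tau responder contrast was 0.13 ± 0.15 (adjusted p = 0.82). With Wdr60, 2 of the 5 genes were called lower in the transactivator contrast, where 18 of all tested genes (0.145%) were called lower. Esyt2 and Wdr60 ranked 2 and 8 by p among the 12414 genes. Esyt2 was highest in endothelial cells, whose share differed between groups. They made up 13.2% ± 2.1 (SD, n = 3) of cells in P301L and 8.8% ± 1.5 (n = 3) in rTta. Their share was 6.3% ± 1.5 (n = 5) in old WT and 5.5% ± 1.8 (n = 4) in old rTg4510.

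Ncapg2 was counted rarely, with 3 to 46 counts per animal. Old WT animals stood at 6.41, 5.13, 10.8, 3.6 and 5.17 CPM and old rTg4510 animals at 5.21, 4.39, 4.34 and 4.15 CPM, which overlapped. For P301L, 9.39, 8.64 and 4.12 CPM were measured, and for rTta, with 4 counts in each animal, 2.09, 2.55 and 2.76 CPM. Young WT animals stood at 9.73, 9.89, 6.66 and 5.99 CPM and young rTg4510 animals at 5.00, 3.10 and 2.35 CPM. The rTta animals lay below the P301L animals, and the young rTg4510 animals below the young WT animals. The transactivator contrast was -0.996 ± 0.28 and did not pass the test (adjusted p = 0.17). The tau responder contrast, in the other direction at 0.65 ± 0.28, did not pass either (adjusted p = 0.45).

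Ptprn2 followed another pattern in the old groups. Old WT animals stood at 110.8, 132.1, 98.7, 85.9 and 109.3 CPM and old rTg4510 animals at 44.3, 50.4, 30.5 and 82.1 CPM, without overlap. The P301L animals, at 116.6, 67.8 and 38.4 CPM, and the rTta animals, at 93.0, 81.1 and 54.4 CPM, overlapped. Young WT animals stood at 130.7, 176.9, 67.4 and 139.3 CPM and young rTg4510 animals at 66.0, 46.0 and 62.6 CPM, so that the lowest WT animal was just above the rTg4510 animals. Old rTg4510 stood at 48.3% of old WT, and rTta at 102.6% of P301L. The transactivator contrast was -0.50 ± 0.23 (adjusted p = 0.45) and the tau responder contrast -0.52 ± 0.23 (adjusted p = 0.47). Ptprn2 is a neuronal gene, and the share of excitatory neurons differed between the groups of the second part. It was 8.8% ± 3.2 (SD, n = 3) of cells in P301L and 16.1% ± 1.0 in rTta, against 19.3% ± 5.8 (n = 5) in old WT and 19.5% ± 6.9 (n = 4) in old rTg4510. All 7 general neuron markers were counted in every group, and their summed level ran from 4640 to 13090 CPM in P301L, 6947 to 13850 in rTta, 7270 to 14190 in old WT and 4927 to 13450 in old rTg4510. Over all cells, fewer neurons and less RNA per neuron cannot be told apart. With the level of each of 6 classes given the same weight in every animal, the transactivator difference in log2(CPM + 5) of Ptprn2 was -0.57, against -0.46 over all cells, with p = 0.0036 and 0.14 in exact permutation tests. The weight of a class was its share of the cells. Interneurons, where Ptprn2 was highest, mural cells and unnamed cells were left out. At these weights the difference of Esyt2 was -0.67, against -0.87 over all cells, with an exact permutation p of at most 0.0012 for both.

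Over all cells Fgf14, at the other insertion, was lower in carriers of the tau responder and not in rTta animals. Old WT animals stood at 12.0, 16.7, 19.5, 15.7 and 24.4 CPM and old rTg4510 animals at 8.86, 14.2, 6.00 and 7.84 CPM, where 1 animal of each group overlapped the other. The rTta animals, at 25.1, 21.7 and 19.3 CPM, all lay above the P301L animals, at 8.61, 7.31 and 16.5 CPM. Young WT animals stood at 24.3, 21.9, 11.6 and 23.7 CPM and young rTg4510 animals at 9.28, 7.52 and 10.2 CPM, without overlap. Of the 10 carriers of the tau responder 8 lay below all 12 animals without it. The tau responder contrast of Fgf14 was -0.97 ± 0.23 and did not pass the edgeR test (adjusted p = 0.13); DESeq2 gave -0.98 with an adjusted p of 0.039. No gene was called lower by edgeR in this contrast (0%), while 1213 genes had an unadjusted p under 0.05 and DESeq2 called 15 lower. The transactivator contrast of Fgf14 was 0.11 ± 0.23 (adjusted p = 0.91). Fgf14 is highest in neurons, and the share of excitatory neurons was lowest in P301L, as given above. At the same fixed class weights, without interneurons, the tau responder difference of Fgf14 was -0.53 in log2(CPM + 5), against -0.75 over all cells, with p = 0.030 and 0.0012 in exact permutation tests.

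**Figure D1:**
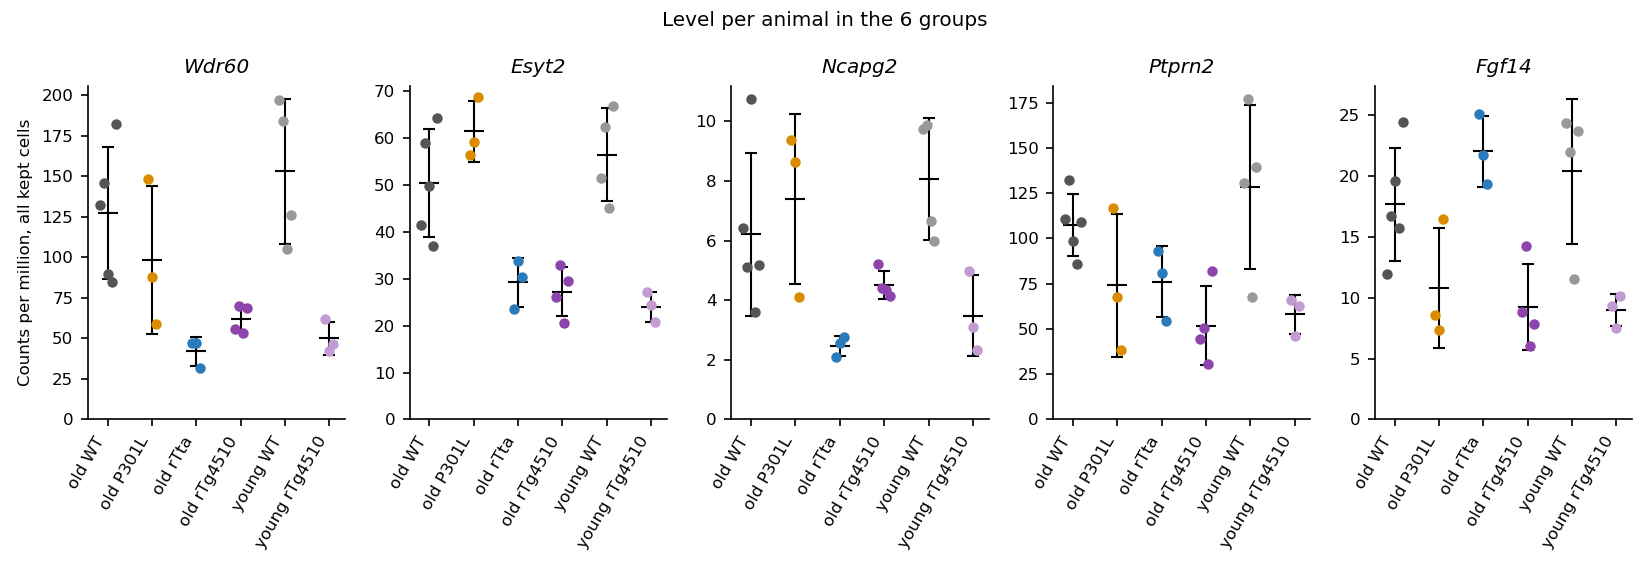
Level of each gene over all cells, in CPM, with 1 point per animal and the mean ± SD of each group as a bar. Wdr60 and Esyt2 are low in the rTta and rTg4510 animals, and Fgf14 in the P301L and rTg4510 animals.

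In young rTg4510 animals all 5 genes were lower than in young WT animals by estimate. The log2 differences were -1.56 ± 0.29 for Wdr60, -1.20 ± 0.21 for Esyt2, -1.15 ± 0.35 for Ncapg2, -1.10 ± 0.33 for Ptprn2 and -1.12 ± 0.32 for Fgf14. With edgeR none of them passed (adjusted p = 0.13 for Wdr60 and Esyt2, 0.96 for the other 3), and no gene at all was called lower (0%). At an unadjusted p under 0.05 there were 434 genes, and among the 12414 genes Esyt2 ranked first and Wdr60 2 by p. DESeq2 called 3 genes lower and 2 higher, and gave an adjusted p of 0.00073 for each of Wdr60 and Esyt2. The genotype difference of the old animals minus that of the young was between 0.08 for Ptprn2 and 0.80 ± 0.47 for Ncapg2, and none of the 5 passed (adjusted p = 0.9999 for each). Between old and young WT animals the differences of the 5 genes lay between -0.37 for Ncapg2 and -0.16 for Esyt2, none past the test (adjusted p = 0.9997 for each).

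Exact permutation tests over animals, two-sided and with labels exchanged only within a part of the table, were run on log2(CPM + 5) for the 5 genes in the 3 contrasts, 15 tests in all. For the transactivator contrast the smallest possible p is 0.000397. Esyt2 reached p = 0.00079, Wdr60 p = 0.0012 and Ncapg2 p = 0.013 in this exact test. The WT and rTg4510 animals carry numbers in 2 separate ranges at each age, of 1 to 3 animals per genotype, which the labels do not call batches. Within these ranges the log2 ratios of mean CPM + 5 of rTg4510 to WT were -0.91 and -1.07 in old and -1.55 and -1.28 in young animals for Wdr60, and -0.68, -0.89, -0.95 and -1.15 for Esyt2. They were -1.18, -0.74, -1.16 and -0.87 for Ptprn2, -0.35, -1.07, -0.98 and -0.71 for Fgf14, and -0.34, -0.02, -0.57 and -0.55 for Ncapg2. For young animals the smallest possible exact p is 0.0286, and Wdr60, Esyt2 and Ncapg2 were each at it, with Ptprn2 and Fgf14 at 0.057.

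**Figure D2:**
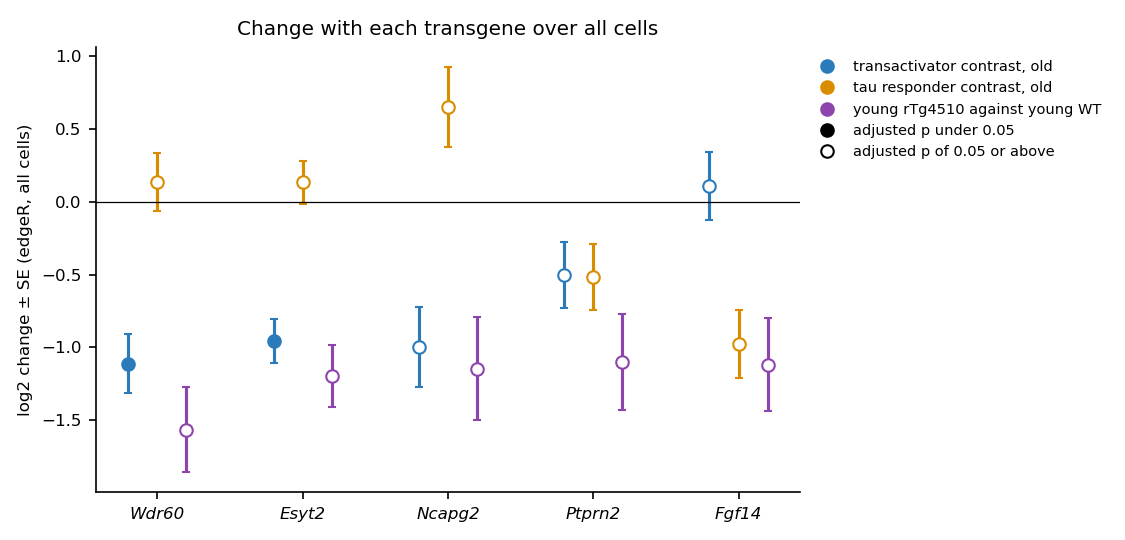
log2 change of each gene over all cells ± SE from edgeR, in the transactivator contrast and the tau responder contrast of old animals and between young rTg4510 and young WT. Filled points passed an adjusted p of 0.05: Wdr60 and Esyt2 in the transactivator contrast.

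Comparisons of single groups had wider errors. Within the parts of the table, Wdr60 differed by -0.98 ± 0.25 between old rTg4510 and old WT (adjusted p = 0.13) and by -1.24 ± 0.31 between rTta and P301L (adjusted p = 0.12). Esyt2 differed by -0.82 ± 0.19 (adjusted p = 0.079) and -1.09 ± 0.23 (adjusted p = 0.063) in the same comparisons. Between rTta and old WT, which also compares the 2 parts of the table, Wdr60 differed by -1.66 ± 0.29 (adjusted p = 0.012), where 0.145% of genes were called lower. Between old rTg4510 and P301L, which both carry the tau responder and differ in tTA and in the part of the table, Esyt2 differed by -1.07 ± 0.21 (adjusted p = 0.020), where 1.06% of genes were called lower. Fgf14 differed by -1.14 ± 0.31 between old rTg4510 and rTta (adjusted p = 0.16) and by -0.05 ± 0.36 between old rTg4510 and P301L (adjusted p = 0.95). When the young animals were added to each contrast as a further part of equal weight, a comparison set up after the data had been seen, the transactivator value was -1.26 ± 0.17 for Wdr60 (adjusted p = 0.00078) and -1.04 ± 0.12 for Esyt2 (adjusted p = 0.00028). Both were called among 13 genes called lower (0.105%). Ncapg2, at -1.05 ± 0.22, missed the threshold (adjusted p = 0.052), and Ptprn2 was at -0.70 ± 0.19 (adjusted p = 0.19). For the tau responder over both ages, Fgf14 was at -1.02 ± 0.19, with an adjusted p of 0.05006 and rank 4 by p, and no gene was called lower (0%), with 1181 at an unadjusted p under 0.05. Ptprn2 was at -0.71 ± 0.19 for the tau responder (adjusted p = 0.16), close to its transactivator value. The young part of both sums carries both transgenes.

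Beyond the chromosome 12 group, 1 gene was called higher and 1 lower within 6 Mb, of 49 tested. Zfp386, a zinc-finger gene at chr12:116047714-116063231, stood at 12.0 to 22.5 CPM in old WT and 9.97 to 16.5 in P301L. It stood at 18.3 to 31.5 CPM in old rTg4510 and 24.1 to 37.0 in rTta. Its transactivator contrast was 0.91 ± 0.18 (adjusted p = 0.035), 1 of 6 genes called higher (0.0483%), and the call was lost in 15 of the 22 fits that left out 1 animal, with adjusted p up to 0.24. Young rTg4510 animals stood at 20.3, 27.4 and 30.5 CPM of Zfp386 and young WT animals at 16.3 to 20.6 CPM. Vipr2, the receptor of vasoactive intestinal peptide between Zfp386 and Wdr60 (chr12:116077420-116148637), was counted only in the P301L and rTta part. Its counts per animal were 4, 6 and 10 in P301L, or 3.13, 3.99 and 13.7 CPM, and 18, 35 and 17 in rTta, or 9.40, 22.3 and 11.7 CPM. The groups overlapped over all cells (exact permutation p = 0.3, where 0.1 is the smallest possible). In excitatory neurons Vipr2 had 16, 29 and 7 counts in rTta and 0, 0 and 3 in P301L.

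Of the listed chromosome 12 neighbours, 8 of 11 were in the table and 4 were tested over all cells. Zfp386 was the 1 called in the transactivator contrast, and the 4 had a median log2 change of 0.45, against 0.01 over all genes. Among the 14 nearest counted genes on both sides, 13 were tested, with a median of -0.07. Pacs2, which sorts cargo at contacts of endoplasmic reticulum and mitochondria (chr12:113014454-113074401), was called lower at -0.96 ± 0.18 (adjusted p = 0.025). Its call was lost in 5 of the 22 fits without 1 animal, each leaving out a P301L or rTta animal. Pacs2 stood at 107.0 to 132.2 CPM in P301L and at 45.5 to 51.7 in rTta, while old WT, at 47.3 to 103.9, and old rTg4510, at 33.4 to 60.5, overlapped. In old WT its mean was 282.7 CPM in oligodendrocytes and 19.1 in excitatory neurons. Oligodendrocytes made up 17.1% of cells in old WT, 11.1% in old rTg4510, 16.4% in P301L and 11.2% in rTta. Without the low-count filter its contrast was -0.59 ± 0.19 in oligodendrocytes (edgeR adjusted p = 0.29) and -0.02 ± 0.30 in excitatory neurons (adjusted p = 0.9998). No counted gene with a position lies beyond Fgf14 on chromosome 14, and 0 of the 12 tested genes of the chromosome 14 list were called by edgeR or DESeq2 in the tau responder contrast. They ran from -0.50 to 0.31 with a median of 0.07, against 0.03 over all genes, and 1 had an unadjusted p under 0.05.

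**Figure D3:**
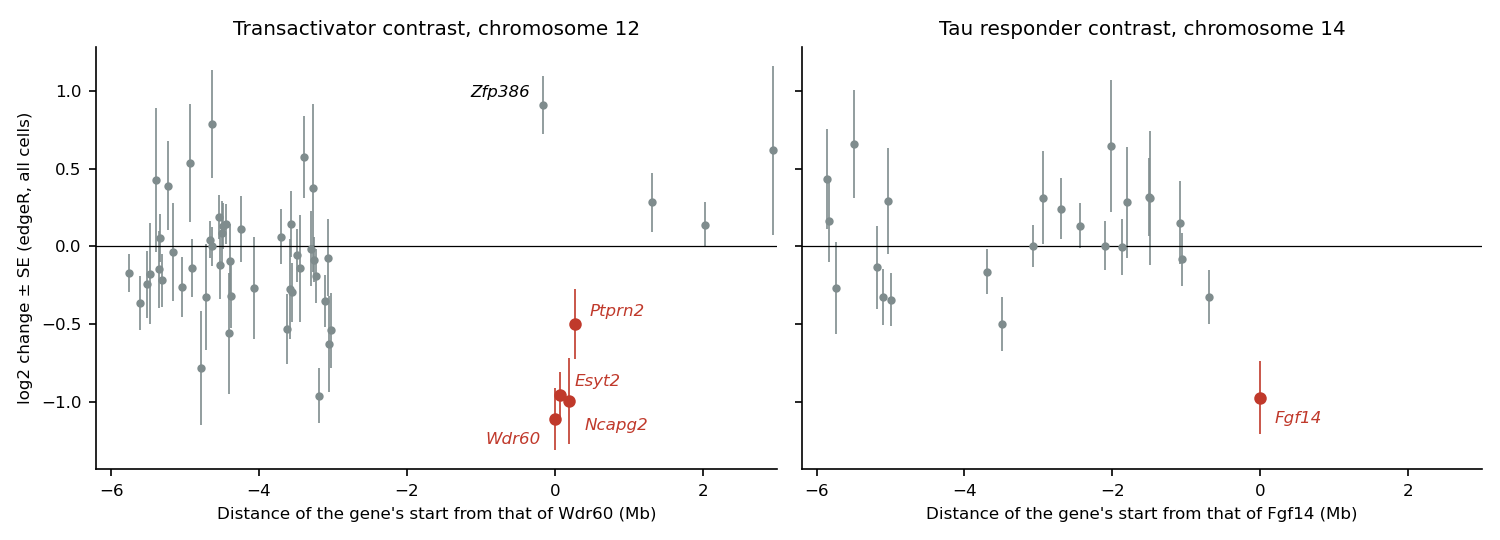
log2 change ± SE over all cells of tested genes against the distance of their start, within 6 Mb, from that of Wdr60 (transactivator contrast) or Fgf14 (tau responder contrast). The genes of the insertions are red; Wdr60, Esyt2 and Ncapg2 lie near -1 beside Zfp386 at 0.91, and Fgf14 near -1.

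Proteins related by role to the 5 genes' products were read from lists, over all cells. Among all 12414 genes, 1305 had an unadjusted p under 0.05 in the transactivator contrast and 1213 in the tau responder contrast. In the transactivator contrast edgeR and DESeq2 called 0 of the 8 tested dynein-2 subunits, partners of Wdr60, with a median of 0.12 and none at an unadjusted p under 0.05. For proteins of membrane contact sites, partners of Esyt2, 0 of 8 were called, with a median of 0.02 and 2 at an unadjusted p under 0.05. The condensin list, with subunits of condensin II and also of condensin I, which lacks Ncapg2, had 0 of 5 called. Its median was 0.03, with none at an unadjusted p under 0.05. The dense-core vesicle list had 0 of 13 called and a median of 0.21, with 2 at an unadjusted p under 0.05. In excitatory neurons edgeR again called none of these 4 lists in this contrast, where 5 of the 13 vesicle genes and 2 of the 8 dynein-2 subunits had an unadjusted p under 0.05, against 1189 of all 9325 genes. DESeq2 called 1 gene of each of these 2 lists there, among 106 called of all 9325 genes. The 2 listed genes were Vgf, a neuropeptide precursor, at 0.90 ± 0.25 by edgeR (adjusted p = 0.099), and Dynll1, a light chain that dynein-1 shares, at -0.50 ± 0.15 (adjusted p = 0.10). Fgf14's relatives and sodium channels had 0 of 12 called in the tau responder contrast, with a median of -0.40 against 0.03 over all genes and 4 at an unadjusted p under 0.05. All 12 were negative by estimate, from -0.52 to -0.09, and in excitatory neurons alone their median was -0.08, with 0 at an unadjusted p under 0.05. In young animals edgeR and DESeq2 called none of the genes of these 5 lists over all cells, where only the vesicle list had a gene at an unadjusted p under 0.05, 1 of 13.

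By cell class, the 5 genes had different homes in WT animals. Classes were named from marker genes, and 6781 of 27198 cells stayed unnamed. Wdr60 was counted in every class, from 69.0 ± 26.9 CPM in astrocytes to 143.4 ± 29.9 CPM in excitatory neurons (SD, n = 9 WT animals of both ages), and the animals of neighbouring classes in this order overlapped. Esyt2 was highest in vessel cells, at 235.1 ± 65.9 CPM in endothelial cells and 183.2 ± 80.9 in mural cells (n = 6), and these classes overlapped. Endothelial values ran from 131.9 to 306.6 CPM, above excitatory neurons at 31.2 to 77.4 CPM. Ptprn2 was highest in interneurons, with a median of 305.8 CPM (n = 8), then excitatory neurons, at 187.5 ± 28.5 CPM, and the lowest interneuron value, 223.3 CPM, was just above the highest excitatory one, 223.2 CPM. Fgf14 was highest in excitatory neurons, at 39.1 ± 9.07 CPM, above interneurons, at 21.1 ± 15.1 CPM, with overlap. Ncapg2 was at 6.94 ± 3.67 CPM in excitatory neurons, and 12.1 ± 13.0 CPM in oligodendrocyte precursors rested on 20 counts.

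RNA freed from neurons can enter the droplets of other cells. The 7 neuron markers in WT astrocytes stood at 8.9% of their level in excitatory neurons, in oligodendrocytes at 9.6% and in microglia at 20.7%. Ptprn2 stood at 13.4%, 11.9% and 24.6% of its excitatory level in these classes, and Fgf14 at 18.4%, 6.0% and 16.6%. Fgf14 in oligodendrocytes and microglia was below the markers, from 6 and 5 counts, and whether it is background was not tested. The other values of Ptprn2 and Fgf14 in these 3 classes lay above the markers, and those of Fgf14 in astrocytes rested on 11 counts. In oligodendrocyte precursors Ptprn2 stood at 35.1% and Fgf14 at 27.2%, against 12.2% for the markers. Wdr60 stood at 48.1%, 68.2% and 82.4% and Esyt2 at 48.9%, 68.2% and 97.6%, well above the markers.

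**Figure D4:**
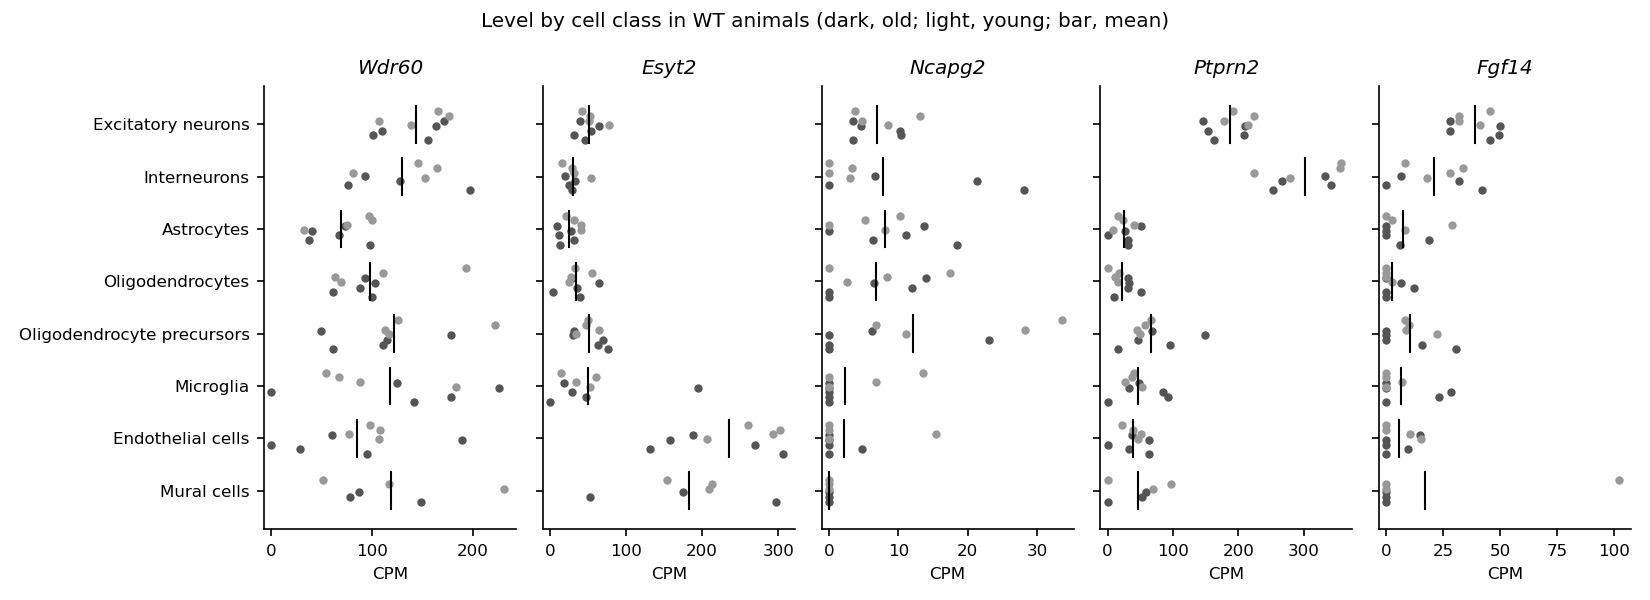
Level of each gene by cell class in WT animals, in CPM, with 1 point per animal and a bar at the mean. Esyt2 is highest in endothelial cells, Ptprn2 in interneurons and Fgf14 in excitatory neurons, while Wdr60 is counted throughout.

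In excitatory neurons, where the Camk2a promoter is mainly active, 4 of the 5 genes were tested, without Ncapg2. Wdr60 stood at 171.4, 164.0, 110.1, 101.4 and 155.6 CPM in old WT and at 66.5, 99.6, 52.8 and 58.9 CPM in old rTg4510, without overlap. Levels were 161.6, 97.3 and 63.5 CPM in P301L and, in rTta, 48.7, 42.3 and 35.1 CPM, also without overlap. The transactivator contrast of Wdr60 was -1.22 ± 0.20 (adjusted p = 0.0013), 1 of the 33 genes (0.354%) called lower there. In young animals it was -1.57 ± 0.26 (adjusted p = 0.0053), 1 of 2 genes called lower (0.0214%), and the call was lost without young rTg4510 replicate 1 (adjusted p = 0.057) or replicate 3 (adjusted p = 0.070) and with coarser clustering (adjusted p = 0.071). Ptprn2 stood at 145.8 to 209.6 CPM in old WT and 85.2 to 126.5 in old rTg4510, and at 178.5 to 223.2 in young WT and 95.0 to 126.7 in young rTg4510, without overlap at either age. The P301L animals, at 118.0 to 207.4 CPM, and the rTta animals, at 120.3 to 156.5 CPM, overlapped. Its transactivator contrast was -0.45 ± 0.15 (adjusted p = 0.17) and its young difference -0.91 ± 0.20 (adjusted p = 0.075, and 0.0040 with DESeq2). Esyt2 was at -0.64 ± 0.26 in the transactivator contrast (adjusted p = 0.29). It stood at 31.2 to 63.8 CPM in old WT and 8.31 to 29.9 in old rTg4510, without overlap. For Esyt2 the P301L animals, at 9.08 to 45.8 CPM, and the rTta animals, at 16.7 to 36.8 CPM, overlapped. Fgf14 was at -0.69 ± 0.24 in the tau responder contrast (adjusted p = 0.55). Its 3 P301L animals stood at 19.3, 28.6 and 72.6 CPM, the last, replicate 3, from 8 counts, and without that animal the value was -0.89 (adjusted p = 0.22). The P301L mean of Fgf14, 40.2 CPM, was level with that of old WT, 40.2 CPM, in the other part of the table. Old WT animals stood at 28.0 to 50.1 CPM of Fgf14, old rTg4510 at 16.4 to 30.5 and rTta at 47.6 to 53.9. Over both ages, Wdr60 (adjusted p = 4.3e-06), Ptprn2 (-0.60 ± 0.12, adjusted p = 0.0051) and Esyt2 (-0.81 ± 0.20, adjusted p = 0.036) were called, where 0.729% of genes were called lower. The tau responder value of Ptprn2 over both ages, which shares these animals, was -0.48 ± 0.12 (adjusted p = 0.12), with rank 19 by p against 29 for the transactivator, and the difference between these values was not tested.

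The make-up of the class shifted between groups, since 3 clusters were joined in it. Cluster 4 held 57.2% of its cells in old WT and 40.9% in old rTg4510, and 48.9% in young WT against 27.9% in young rTg4510. Cluster 3 held 33.0% in old WT and 31.9% in old rTg4510, and 34.3% in young WT against 46.3% in young rTg4510. Cluster 0 held 9.8% in old WT and 27.1% in old rTg4510, and 16.8% in young WT against 25.8% in young rTg4510. In cluster 3 only 2 P301L animals, with 24 cells each, had enough cells. Within cluster 4 the transactivator difference in log2(CPM + 5) was -0.78 for Wdr60 and within cluster 3 it was -1.40, with exact permutation p of 0.017 and 0.0024. For Ptprn2 it was -0.13 within cluster 4 and -0.68 within cluster 3, with exact permutation p of 0.66 and 0.018. In young animals Ptprn2 differed by -0.11 within cluster 4 and by -1.16 within cluster 3, with exact permutation p of 0.74 and 0.029.

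Wdr60 was low beyond excitatory neurons too. In the transactivator contrast it was tested in 6 of 7 classes and had a negative estimate in each, between -1.27 and -0.99, with an unadjusted p under 0.05 in all 6 and a call in excitatory neurons alone. In astrocytes it was at -1.11 ± 0.36 (adjusted p = 0.41), in oligodendrocytes at -0.99 ± 0.31 (adjusted p = 0.20) and in microglia at -1.23 ± 0.41 (adjusted p = 0.16). Over both ages it was also called in oligodendrocytes (-1.14 ± 0.24, adjusted p = 0.024), in their precursors (-1.47 ± 0.30, adjusted p = 0.042) and in microglia (-1.34 ± 0.34, adjusted p = 0.032). The share of genes called lower was 0.218%, 0.0256% and 0.99% in these classes. In microglia Wdr60 was also low in P301L animals, at 43.2 ± 11.4 CPM (SD, n = 3). Old WT microglia, in the other part of the table, stood at 134.1 ± 84.5 CPM (n = 5), with 1 animal at 0. There rTta differed from P301L by -0.64 ± 0.68 (adjusted p = 0.93), and the tau responder value over both ages was -0.91 ± 0.35 (adjusted p = 0.34). The change of Wdr60 in excitatory neurons minus that in all other cells was -0.11 in the transactivator contrast (exact permutation p = 0.50) and 0.03 in young animals (exact permutation p = 0.97). The other cells included interneurons and unnamed cells. In unnamed cells of WT animals the neuron markers stood at 89.8% of their excitatory level and Wdr60 at 194.4%. The comparison therefore cannot tell whether neurons differed from non-neuronal cells. Esyt2 in endothelial cells stood at 131.9 to 306.6 CPM in old WT, 267.6 to 390.1 in P301L, 122.2 to 215.5 in old rTg4510 and 127.8 to 214.4 in rTta. The rTta animals lay below the P301L animals, while the WT and rTg4510 animals overlapped, and the contrast was -0.57 ± 0.24 (adjusted p = 0.68).

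**Figure D5:**
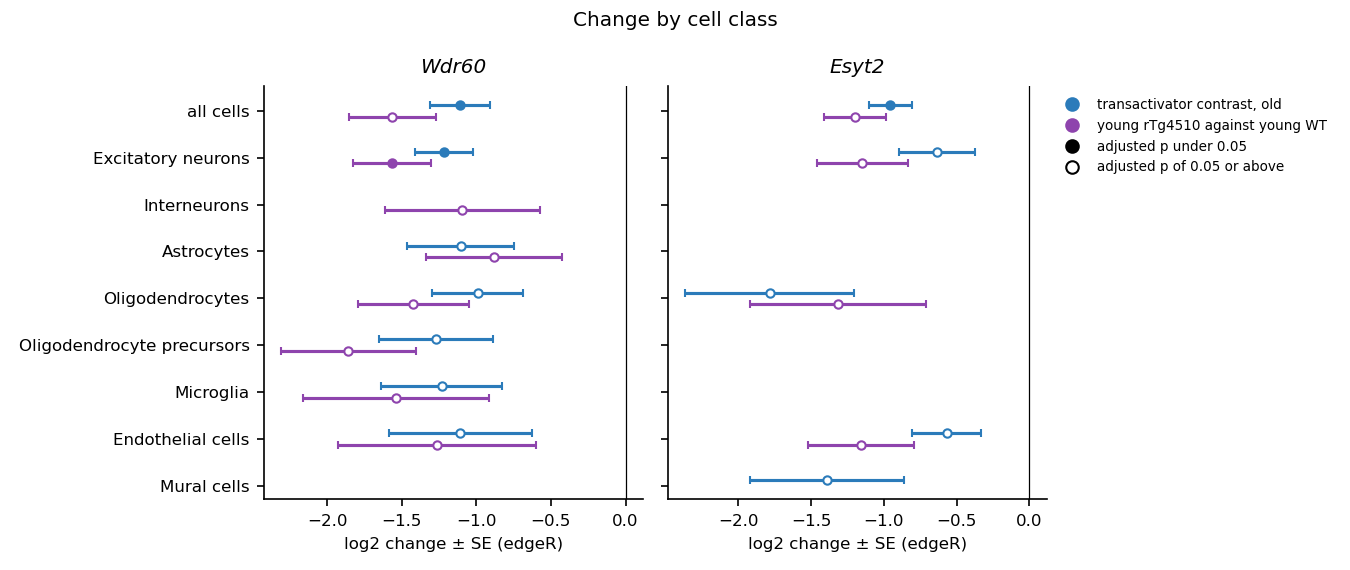
log2 change ± SE from edgeR of Wdr60 and Esyt2 by cell class, in the transactivator contrast of old animals and between young rTg4510 and young WT. Filled points passed an adjusted p of 0.05. Every tested class has a negative estimate for both genes.

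As a description over the 22 animals and all cells, the gene among 8244 whose level ran most like that of Wdr60 was its neighbour Ptprn2 (Pearson r = 0.77), followed by Clec16a and Trpc6 (0.77 and 0.76). For Esyt2 the gene most alike was Wdr60 (0.76), followed by Stxbp6 (0.74) and Ccdc85b (0.70). Ncapg2 ran most like Zfp949 (0.80), Clec16a (0.78) and Wdr60 (0.76). Ptprn2 was closer to Sertm1 (0.92), Tmem130 (0.88) and Pcdh19 (0.87) than to any of its neighbours, of which Wdr60 ranked 84. The genes most like Fgf14 were Hspa12a (0.77), Tpm1 (0.75) and Rexo4 (0.75). The animals share their libraries, cell make-up and transgenes across all genes, which such values include.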

How the data were processed

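The data are UMI-tagged Drop-seq reads as counts per gene and cell barcode, in a single table that the authors deposited; CPM are counts per 1000000, computed here. Demultiplexing used bcl2fastq 2.18.0.12 and alignment STAR 2.2 with build mm10, per the submitters' processing notes; the counting tool, annotation and filters are not given in the sources used here, nor whether strand was used, so reads of overlapping genes cannot be told apart. The 5 genes and all lists were chosen with earlier results of these data known. The 30500 barcodes were reduced to those with at least 300 counts and clustered with scanpy 1.11.5 (2000 variable genes, 40 components, 15 neighbours, Leiden resolution 1, Python 3.11.15). Clusters were named when at least 3 markers stood 2-fold above other clusters after adding 20 CPM, a rule set after the clusters had been seen. A cluster of 951 cells led by Kl and Sostdc1 stayed unnamed, since 5 of 6 listed choroid plexus markers were not in the table. No doublet caller was run; in 1931 of the named cells, markers of some other class had the higher count. Counts were summed per animal, and per class for animals with at least 20 cells, and fitted with edgeR 4.0.16 (TMM, filterByExpr, robust quasi-likelihood test, Benjamini-Hochberg adjustment over all tested genes, threshold 0.05) in R 4.3.3, with DESeq2 1.42.0 as an alternative. On simulated data, a log2 change of -1 in the transactivator contrast was called for 57% of changed genes over all cells, and for 25% in the young comparison, with 6 and 5 false calls among 12414 genes. The simulation lowered 200 genes in tTA carriers, by a log2 change of -1 or -2. The data had 24 calls in the transactivator contrast and 0 in young animals, so these shares may be too high for them. Neighbours and partners are named where edgeR called them, up to 4 a list; Vgf and Dynll1, called by DESeq2 alone, were named after their values were seen; the genes most alike are the 3 with the highest r among genes with a mean of at least 20 CPM. RefSeq positions matched 13645 of 13685 genes.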

Additional observations from a re-analysis of the deposited data

Results flagged for a closer look

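Esyt2 in excitatory neurons of old rTg4510 replicate 1 stood at 8.31 CPM, from 4 counts, while the other 3 animals of the group stood at 28.4 to 29.9 CPM. The gap to the nearest animal was large for the range of the group. Over all cells the same animal, at 26.1 CPM, lay within its group. Of 30 groups examined in this way 1 stood out, and chance gives about 1 in 20.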

How the results depend on the processing

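Over all cells, 10 results on the 5 genes were recomputed under 30 alternatives each, 300 values in all. They were each gene's contrast for the transgene at its own insertion and its young difference. None changed sign, and 291 also stayed on the same side of the threshold. In the contrast for the other transgene, values near 0 changed sign when 1 animal was left out. Fgf14 ran from -0.05 to 0.31 and Wdr60 from -0.05 to 0.25 there, while Esyt2, Ncapg2 and Ptprn2 kept their sign. With DESeq2, the young differences of Wdr60 (-1.56) and Esyt2 (-1.20) and the tau responder contrast of Fgf14 (-0.98) passed the threshold, and Esyt2 in young animals also passed without choroid plexus, ependymal and fibroblast clusters (-1.21, adjusted p = 0.023). Leaving out 1 animal at a time moved the transactivator contrast of Wdr60 between -1.22 and -0.93, called in 18 of 22 fits, and that of Esyt2 between -1.03 and -0.89, called in 21 of 22. Ncapg2 ran from -1.10 to -0.88 and Ptprn2 from -0.65 to -0.29, never called. Fgf14 ran from -1.17 to -0.84 in the tau responder contrast. In young animals the ranges were -1.71 to -1.44 for Wdr60, -1.27 to -1.11 for Esyt2, -1.48 to -0.94 for Ncapg2, -1.30 to -0.92 for Ptprn2 and -1.31 to -1.02 for Fgf14, with no call. At class weights fixed over animals the exact permutation p of Ncapg2 rose to 0.19 in the transactivator contrast and 0.086 in young animals. The number of genes called in the transactivator contrast was 24 with edgeR and 83 with DESeq2, in the tau responder contrast 3 and 56, and in young animals 0 and 5. No paired analysis was possible because replicate numbers only name the animals in accession order. Depth limits Ncapg2 most, at 3 to 46 counts per animal.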
